A study of Homo sapiens with 9 samples.

Results

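SCP58 is a line grown from 1 cell of SW480/EGFP, a human colorectal carcinoma cell line that carries the green fluorescent protein EGFP. The parent is the uncloned SW480/EGFP population, so both groups share the SW480 background and the EGFP transgene, and both were grown in the same serum-containing medium. The labels class SCP58 as having low metastatic potential, from tumours implanted into the organ of origin in mice. The comparison asks which genes set this clone apart from the population it came from. It used the 3 arrays titled SCP58 and the 3 titled SW480/EGFP, out of 9 in the series, and all 19775 genes that the array's annotation names from probe sets with 1 gene symbol. Of these, 13193 were tested and 6582 were too dim. The remaining 3 arrays belong to SCP51, another single-cell line of the same parent, classed as highly metastatic. They serve here only to show the level of a gene in a second clone, without a test. SCP58 is 1 clone, so every difference below is between this clone and the parent population, and a difference common to low metastatic cells cannot be told apart from one private to the clone. The labels name the arrays of a group biological replicates without saying how far back the cultures were separate, so each p-value measures the spread between these arrays.

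A population of carcinoma cells is a mixture of lineages that differ in gene regulation and in copy number. A clone descends from a single cell of it. A gene that is on in part of the population can therefore be fully on or off in a clone, and a pooled measurement of the parent shows the average over its cells. SW480 carries a truncated APC protein, which keeps Wnt signalling active, and has lost much of the differentiated state of colon epithelium. In RNA from whole cultures, fewer cells expressing a gene and less RNA per cell cannot be told apart.

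Signals are Affymetrix intensities on a linear scale. Differences are on the log2 scale, SCP58 minus parent, with the standard error (SE) of the fit and n = 3 arrays per group throughout. A signal under the median of its array is called dim. The medians of the 6 arrays lay between 42.5 and 44.3. No detection calls were used, so a fold change against a dim level depends on how low signals are treated. Across genes, arrays correlated at 0.9781 to 0.9839 within the parent, at 0.9717 to 0.9798 within SCP58 and at 0.9652 to 0.9786 between them (genes are not independent replicates). By these correlations none of the 6 arrays stood apart. Among the SCP51 arrays, replicate 1 did, with correlations of 0.9032 to 0.9161 to the other 8 arrays. All 11 markers of colon carcinoma epithelium, among them EPCAM, CDH1 and the keratins KRT8, KRT18 and KRT19, lay above the median on all 6 arrays. Their summed signal was 21100 to 23000 in SCP58 and 21400 to 22400 in the parent. Of 10 fibroblast, 8 leukocyte and 8 endothelial markers on the array, 4, 3 and 3 lay above the median on at least 3 arrays. Their summed signals were 499 to 539 in SCP58 against 555 to 609 in the parent, 297 to 318 against 294 to 345, and 322 to 375 against 316 to 369.

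Few genes were called as different between SCP58 and its parent. The cancer-testis antigens SSX1 and SSX3, the zinc finger gene ZBED2, the hyaluronan synthase HAS3 and the protocadherin PCDH7 were lower in the clone. The homeobox genes HOXB8 and HOXB3, the proteoglycan VCAN, the polarity scaffold PALS1 and the phosphoinositide phosphatase INPP4B were higher. A gene was called when its limma p, adjusted over all genes by the Benjamini-Hochberg method, was under 0.05. Of 13193 genes, 37 were called, or 0.28%. Of these, 18 (0.136%) were higher and 19 (0.144%) lower in SCP58. All 37 had groups that did not overlap, as did 2259 genes in all (17.1%, of which 9.42% of tested genes lay higher and 7.7% lower). Differences reached 2-fold for 27 of the called genes, 13 higher and 14 lower, and the smallest difference called was 0.62. Whether called or not, 115 genes were at least 2-fold apart. At an unadjusted p under 0.05 there were 1631 genes (12.4%), and 86 genes had an adjusted p under 0.1. The count of calls therefore does not give the number of genes that differ, which was not estimated.

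**Figure D1:**
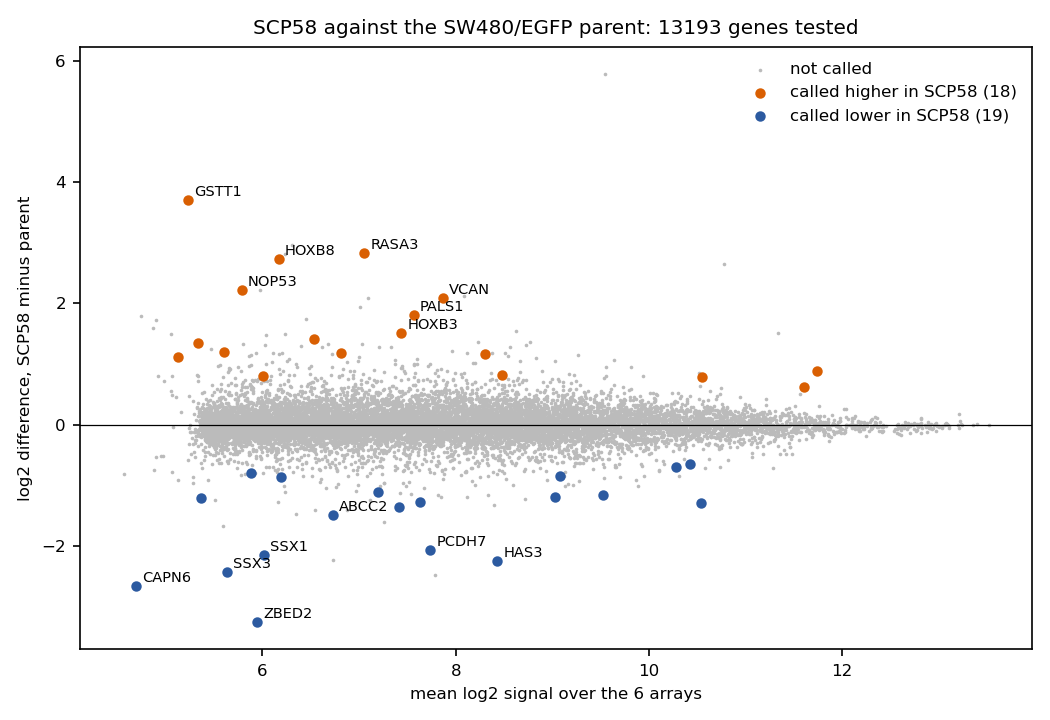
Each point is 1 of the 13193 genes tested, with its mean log2 signal over the 6 arrays on the x axis and the log2 difference, SCP58 minus parent, on the y axis, and the 37 called genes are coloured by direction. Most genes lie close to 0, and the uncalled grey point near the top is KLRF1, whose signal was 14, 12.6 and 5800 on the 3 parent arrays.

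The typical gene differed little. The median difference over all tested genes was -0.002 and the median absolute difference 0.129, with a median 95% confidence interval reaching 0.323 to either side. For 93.7% of genes the whole interval lay within 1 log2 unit of 0, so a 2-fold difference in either direction lay outside it. The count of calls moved with single arrays. It was 12 without parent replicate 1, 22 without parent replicate 3, 20 without SCP58 replicate 3 and 73 without SCP58 replicate 1. The split of higher against lower calls was 18 to 19 as deposited, 28 to 19 after quantile normalization and 37 to 24 after centring each array on its 75th percentile.

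The SSX genes lie in a cluster on the X chromosome and are silent in most adult tissues outside the testis. Their proteins act in the nucleus as transcriptional repressors, and they are known as partners of SS18 in the fusion that marks synovial sarcoma. Probe sets for the family read near-identical transcripts, so a signal cannot be given to 1 SSX gene with confidence. The starts of 4 family members show how alike these genes are. The 250 bases before the transcription start, from RefSeq on GRCh38.p14, are given 5′ to 3′ in the direction of each gene. The capitals mark a run of 27 bases shared by all 4 windows, which in SSX1 lies on the opposite strand.
SSX1 promoter, chrX:48255142-48255391, plus strand: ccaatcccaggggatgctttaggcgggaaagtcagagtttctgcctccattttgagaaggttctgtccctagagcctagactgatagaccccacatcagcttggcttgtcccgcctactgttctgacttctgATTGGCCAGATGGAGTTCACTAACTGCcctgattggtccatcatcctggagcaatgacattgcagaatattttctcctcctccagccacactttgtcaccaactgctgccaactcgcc
SSX2 promoter, chrX:52707228-52707477, minus strand: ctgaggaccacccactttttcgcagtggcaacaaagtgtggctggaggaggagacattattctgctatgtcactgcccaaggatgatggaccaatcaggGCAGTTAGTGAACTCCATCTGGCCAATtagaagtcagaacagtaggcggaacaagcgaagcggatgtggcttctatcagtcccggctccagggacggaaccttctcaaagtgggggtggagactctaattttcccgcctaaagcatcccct
SSX4 promoter, chrX:48383289-48383538, plus strand: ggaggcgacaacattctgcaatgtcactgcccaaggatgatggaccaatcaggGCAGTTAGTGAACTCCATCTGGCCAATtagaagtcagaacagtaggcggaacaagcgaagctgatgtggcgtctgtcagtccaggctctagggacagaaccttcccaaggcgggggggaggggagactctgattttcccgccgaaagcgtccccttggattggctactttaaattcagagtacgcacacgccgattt
SSX5 promoter, chrX:48196796-48197045, minus strand: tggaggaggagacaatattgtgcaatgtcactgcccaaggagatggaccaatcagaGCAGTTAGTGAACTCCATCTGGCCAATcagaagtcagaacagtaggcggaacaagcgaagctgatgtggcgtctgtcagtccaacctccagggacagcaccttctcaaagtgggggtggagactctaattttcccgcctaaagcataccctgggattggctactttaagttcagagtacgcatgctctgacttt
Read as GCAGTTAGTGAACTCCATCTGGCCAAT on either strand, the run was found in 7 of 27305 promoter windows (0.0256%), and all 7 belong to the SSX family, namely SSX1, SSX2, SSX2B, SSX4, SSX4B, SSX5 and SSX7. It was searched for because these windows share it, and it is shown as a mark of likeness between the copies, not as a binding site. SSX3 is named only.

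All 11 probe sets for the family that were bright enough to be tested were lower in SCP58, by 1.69 to 4.92 log2 units, or 3.22- to 30.3-fold. Across them the parent signals ran from 57.3 to 448 and the SCP58 signals from 7.91 to 33.7, below the median of every array. Each set thus passed the brightness filter through the 3 parent arrays alone, so their shared direction is no separate support for the difference. The probe set used for SSX1 had signals of 144, 143 and 123 in the parent and 33.7, 32.3 and 26.4 in SCP58. The parent arrays were all above the median and the SCP58 arrays all below it. SSX1 fell by 2.16 (SE 0.14, limma adjusted p = 0.000491). SSX3, with 116, 126 and 104 in the parent and 23.4, 22.5 and 18.5 in SCP58, fell by 2.43 (SE 0.14, adjusted p = 0.000247). The groups were far apart for both genes relative to their spread. The largest difference in the family, 30.3-fold, belonged to a probe set shared by SSX2 and SSX2B, with 446, 448 and 374 in the parent and 15.6, 17.2 and 10 in SCP58. Another set tied to SSX3 alone fell by 4.70. A second, dim set for SSX1 lay at 0.41 with overlapping groups. Of the 11 sets, 7 are tied to several SSX genes and were not used in the gene counts. The SCP51 clone was dim on the same sets too, with signals of 10.3 to 40.9, so among the 9 arrays only the uncloned parent had a signal above the median. With 32 added to every signal before log2, the differences of SSX1 and SSX3 were -1.43 and -2.75, SSX3 then being read from its set with the larger difference, and both stayed called.

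**Figure D2:**
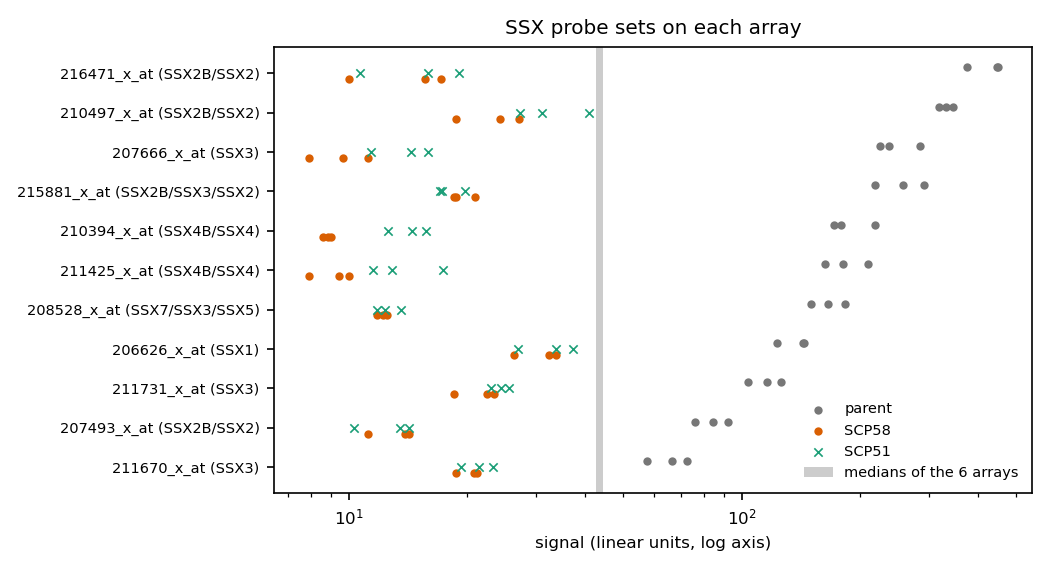
Signals on a log axis for the 11 SSX probe sets on each array of the parent, SCP58 and SCP51, 1 point per array. The parent arrays lie between 57.3 and 448 on every set, and those of both clones lie at 40.9 or below.

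Of the cancer-testis list, 9 of 21 genes on the array were bright enough to test, SSX1 and SSX3 were called lower and no gene higher. The other members did not share that size of difference. MAGEA1 lay at -0.22 (adjusted p = 0.498), and PRAME at 0.11 with overlapping groups. The median over the 9 genes was -0.06.

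ZBED2 encodes a zinc finger transcription factor. It had signals of 209, 166 and 200 in the parent and of 17.6, 22.5 and 20 in SCP58. The SCP58 arrays were dim and the groups did not overlap. ZBED2 fell by 3.26 (SE 0.14, 9.56-fold, limma adjusted p = 6.64e-05), the smallest adjusted p in the comparison together with RASA3. On the SCP51 arrays ZBED2 was 366, 792 and 674, so the parent lay between the clones. With 32 added before log2, the difference was -2.10.

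CAPN6, an X-linked calpain that lacks protease activity and binds microtubules, had signals of 69.0, 51.0 and 78.4 in the parent and 10.4, 9.17 and 11.1 in SCP58. It fell by 2.67 (SE 0.18, adjusted p = 0.000492). SCP51 was dim as well, at 8.54, 9.46 and 6.60. A second CAPN6 set lay at -0.39 and another at 0.17, both dim. The second set was the brighter on average and takes the gene's place when no filter is applied, so CAPN6 was then not called (-0.39, adjusted p = 0.451).

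HAS3 and PCDH7 came next in size among the lower genes. HAS3, which makes hyaluronan at the plasma membrane, had 906, 546 and 861 in the parent against 196, 121 and 167 in SCP58. It fell by 2.25 (SE 0.24, adjusted p = 0.00958). SCP51 had 106, 110 and 114. A second set above the median read a difference of only -0.35. PCDH7, a protocadherin of cell-cell contacts, had 559, 310 and 482 in the parent against 99.9, 82.9 and 135 in SCP58. It fell by 2.08 (SE 0.25, adjusted p = 0.0168), and its other bright set by 1.15. On the SCP51 arrays PCDH7 was 468, 686 and 675, close to or above the parent. Among 11 cadherins and protocadherins tested, PCDH7 alone was called, and the median was -0.01. The largest other differences in that list were those of the planar polarity cadherins CELSR2 (-0.73, adjusted p = 0.546) and CELSR1 (0.38, adjusted p = 0.444), both with overlapping groups. Some smaller differences were also called. CHODL, a membrane lectin, fell by 1.21 (adjusted p = 0.039). CILP2, a protein of cartilage matrix, fell by 0.87 (adjusted p = 0.039), while its second, dim set lay at 1.59 in the opposite direction. SERPINH1, the collagen chaperone HSP47, fell by 0.84 (adjusted p = 0.0499), and PLAT, the tissue plasminogen activator, by 0.80 (adjusted p = 0.039). Several of these calls rested on the number of arrays. Without parent replicate 1 the adjusted p was 0.0533 for HAS3 and 0.0687 for PCDH7, and for PCDH7 it was 0.0646 without parent replicate 3. CHODL had 0.11 and 0.138 without SCP58 replicates 2 and 3. CILP2 lost its call without any parent replicate or without SCP58 replicate 1 or 3 (0.0545 to 0.169), and SERPINH1 and PLAT without any of the 6 arrays (0.0522 to 0.216 and 0.0522 to 0.173).

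Regulators of development and signalling were also among the lower genes. SOX4, a transcription factor of progenitor cells and a known Wnt target, had 2400, 2160 and 2450 in the parent and 1310, 711 and 916 in SCP58. The groups did not overlap and SOX4 fell by 1.30 (SE 0.20, adjusted p = 0.0482). Among its other bright sets 3 gave similar values, with -1.55, -1.57 and -1.30, and another gave -0.24. SCP51 had 2930, 3400 and 3290. BAMBI, a decoy receptor that dampens TGF-beta signalling and is itself a Wnt target, had 200, 248 and 203 in the parent and 98.2, 99.1 and 101 in SCP58. BAMBI fell by 1.12 (SE 0.13, adjusted p = 0.0135). JAG1, a ligand of Notch receptors, had 1120, 1080 and 1100 in the parent and 591, 376 and 534 in SCP58. It fell by 1.16 (SE 0.17, adjusted p = 0.039), and 3 of its other bright sets read -1.2 to -1.92, while another read -0.22 with overlapping groups. In SCP51, JAG1 was 959, 1130 and 958. For SOX4 and JAG1 the call was lost without any parent replicate or without SCP58 replicate 3 (adjusted p of 0.101 to 0.188 and 0.101 to 0.184). For BAMBI it was lost without parent replicate 1 or 3 or SCP58 replicate 2 or 3 (0.0504 to 0.0635).

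The remaining lower genes concern transport, lipids and other functions. NETO2, an auxiliary subunit of kainate receptors, had 276, 284 and 257 in the parent and 94.1, 105 and 121 in SCP58. It fell by 1.36 (SE 0.14, adjusted p = 0.00695), and its second set fell by 1.29. NDUFAF2, an assembly factor of respiratory complex I, had 309, 306 and 315 in the parent and 138, 124 and 119 in SCP58, and fell by 1.29 (SE 0.12, adjusted p = 0.00547). Both genes stayed called with any array left out. ABCC2, an exporter of conjugated drugs and bile pigments, had 160, 208 and 171 in the parent and 53.6, 69.6 and 67.5 in SCP58. It fell by 1.5 (SE 0.16, adjusted p = 0.00816) and was the only one of 28 NRF2 target and detoxification genes to be called. SCARB1, the receptor for high-density lipoprotein, fell by 1.2 (SE 0.16, adjusted p = 0.0279), its second bright set by 1.4. TMEM97, a membrane protein tied to cholesterol handling, fell by 0.65 (adjusted p = 0.039), and MOSPD1 by 0.70 (adjusted p = 0.0367). SCARB1 and TMEM97 lost the call without any parent replicate or without SCP58 replicate 2 or 3 (0.062 to 0.147 and 0.0702 to 0.196). MOSPD1 lost it without parent replicate 1 or 3 or SCP58 replicate 2 or 3 (0.0687 to 0.188).

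HOX genes encode homeodomain transcription factors that record position along the body axis, and the HOXB cluster lies on chromosome 17. HOXB8 had signals of 22.7, 33.0 and 29.1 in the parent, all dim, and of 316, 146 and 138 in SCP58. HOXB8 rose by 2.73 (SE 0.31, 6.63-fold, limma adjusted p = 0.0116). The SCP51 arrays were higher still, at 533, 644 and 722. HOXB3 had 88.0, 118 and 105 in the parent and 303, 266 and 310 in SCP58, and rose by 1.51 (SE 0.15, adjusted p = 0.00695). SCP51 had 428, 407 and 396, so both clones lay above the parent at these genes. Their neighbours HOXB6 and HOXB4 had differences of 0.60 and 0.59 without a call (adjusted p = 0.264 and 0.188), with groups that did not overlap. Of 19 HOX genes tested, 2 were called, both higher, where 0.28% of all genes were called. In all, 5 of the 19 (26.3%) lay wholly above the parent, against 9.42% of all genes, and the median was 0.13. HOXB8 and HOXB4 were dim on the 3 parent arrays and passed the brightness filter through the 3 SCP58 arrays alone. Their direction is therefore no separate support for a difference. A second set for HOXB3 read 0.03 above the median of the arrays, so the mean of its sets was 0.77 and was not called (adjusted p = 0.0669). A second, dim set for HOXB8 read 0.26. Without parent replicate 1 the adjusted p of HOXB8 was 0.0642, and with 32 added before log2 its difference was 1.87.

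Among matrix and polarity genes, VCAN and PALS1 were higher in the clone. VCAN encodes versican, a large chondroitin sulphate proteoglycan of the matrix. It had 111, 107 and 122 in the parent and 678, 293 and 559 in SCP58. The groups did not overlap, and VCAN rose by 2.09 (SE 0.28, 4.26-fold, adjusted p = 0.031). Its other 4 sets gave 1.69 to 2.21, and SCP51 had 471, 725 and 560. PALS1, a scaffold of the Crumbs complex that sets apical polarity, had 92.4, 111 and 101 in the parent and 313, 345 and 414 in SCP58. PALS1 rose by 1.81 (SE 0.15, 3.51-fold, adjusted p = 0.00229), its second set by 1.90. SCP51 had 385, 456 and 399. It stayed called under every alternative that gave it a value. ACAN, which encodes the related proteoglycan aggrecan, rose by 1.19 (SE 0.14, adjusted p = 0.0168) on 1 set, while its other 3 sets, all dim, read -0.09 to 0.00. Without parent replicate 1 or 3 the adjusted p of ACAN was 0.078 and 0.0679. For VCAN the call was lost without any parent replicate or without SCP58 replicate 3 (0.0679 to 0.129).

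INPP4B, MAML2 and F3 were also higher. INPP4B removes a phosphate from phosphoinositides of the PI3-kinase pathway. It had 47.4, 58.9 and 65 in the parent and 161, 133 and 161 in SCP58, and rose by 1.41 (SE 0.15, adjusted p = 0.0102), its second bright set by 1.22. In SCP51 it was 288, 294 and 254. MAML2, a coactivator of Notch, had 70.8, 75.2 and 78.2 in the parent and 153, 150 and 214 in SCP58. It rose by 1.19 (SE 0.16, adjusted p = 0.0322). F3 encodes tissue factor, which starts blood clotting. It had 225, 175 and 237 in the parent and 533, 471 and 426 in SCP58, and rose by 1.17 (SE 0.16, adjusted p = 0.0324). DUSP9, a phosphatase of MAP kinases, rose by 0.80 (adjusted p = 0.039), and CAV2, a coat protein of caveolae, by 0.79 (SE 0.08, adjusted p = 0.00695). CAV2 had 1140, 1180 and 1100 in the parent and 1940, 1910 and 2040 in SCP58. A further bright set for CAV2 read 0.72 and another 0.36, and the mean of the sets was not called (0.62, adjusted p = 0.0845). Calls were lost without SCP58 replicate 3 for INPP4B (adjusted p = 0.0578) and without parent replicate 1 for CAV2 (0.0533). MAML2 lost the call without any parent replicate or without SCP58 replicate 3 (0.0505 to 0.147), and F3 and DUSP9 without any of the 6 arrays (0.0522 to 0.119 and 0.0522 to 0.173).

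Proteins of the endoplasmic reticulum and lysosome completed the brighter genes. NPC2, which carries cholesterol out of lysosomes, had 2390, 2660 and 2510 in the parent and 5290, 4230 and 4440 in SCP58. It rose by 0.88 (SE 0.09, adjusted p = 0.00695) and stayed called with any array left out. CANX, the chaperone calnexin, had 2440, 2580 and 2510 in the parent and 3510, 3630 and 4490 in SCP58, and rose by 0.62 (SE 0.09, adjusted p = 0.0482). ZDHHC4, a protein palmitoyltransferase, rose by 0.81 (SE 0.11, adjusted p = 0.0386). CANX lost its call without any parent replicate or without SCP58 replicate 2 (0.0784 to 0.196), and ZDHHC4 without any parent replicate or without SCP58 replicate 2 or 3 (0.0898 to 0.196). The divergent noncoding transcripts CRIM1-DT and MAP3K2-DT, which start beside CRIM1 and MAP3K2 and run the opposite way, rose by 1.35 and 1.12 (adjusted p = 0.0357 and 0.0102). CRIM1 itself had a difference of 0.63 without a call (adjusted p = 0.166). A second set for CRIM1-DT read 0.33. It stands for the gene when no filter is applied, and CRIM1-DT was then not called (adjusted p = 0.494). Without parent replicate 1 or 2 the adjusted p of CRIM1-DT was 0.109 and 0.101.

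GSTT1, RASA3 and NOP53 had 3 of the 4 largest increases among the called genes, and each had a signal that switched between the arrays of SCP51. RASA3, which turns off Ras and Rap proteins, had 45.6, 55.3 and 49.1 in the parent and 357, 376 and 329 in SCP58. It rose by 2.83 (SE 0.13, 7.09-fold, adjusted p = 6.64e-05). In SCP51 it was 312, 59.6 and 307. A second set above the median read 0.17. NOP53, a ribosome biogenesis factor, had 25.9, 24.4 and 26.3 in the parent and 110, 111 and 137 in SCP58, and rose by 2.22 (SE 0.13, adjusted p = 0.000247). In SCP51 it was 101, 25.8 and 123. GSTT1, a glutathione transferase, had 6.79, 10.2 and 16.2 in the parent and 110, 271 and 83.8 in SCP58. It rose by 3.71 (SE 0.45, adjusted p = 0.0168), while its other, dim set read 0.28. In SCP51 it was 256, 6.65 and 12.8. The SCP51 arrays of 1 clone thus held both the level of the parent and that of SCP58 for each of these genes. A spread of at least 2 log2 units within the SCP51 group was found for 581 of 13193 genes and for these 3 of the 37 called. In the parent and in SCP58 it was found for 64 and 100 genes, and for none of the called ones. With all 9 arrays in the fit, none of the 3 was called (adjusted p = 0.137 for RASA3, 0.228 for NOP53 and 0.404 for GSTT1). Without parent replicate 1 or 2 the adjusted p of GSTT1 was 0.068 and 0.0636. With 32 added before log2, the differences were 2.23, 1.39 and 1.99. Whether the switching in SCP51 bears on the calls in SCP58 was not tested.

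**Figure D3:**
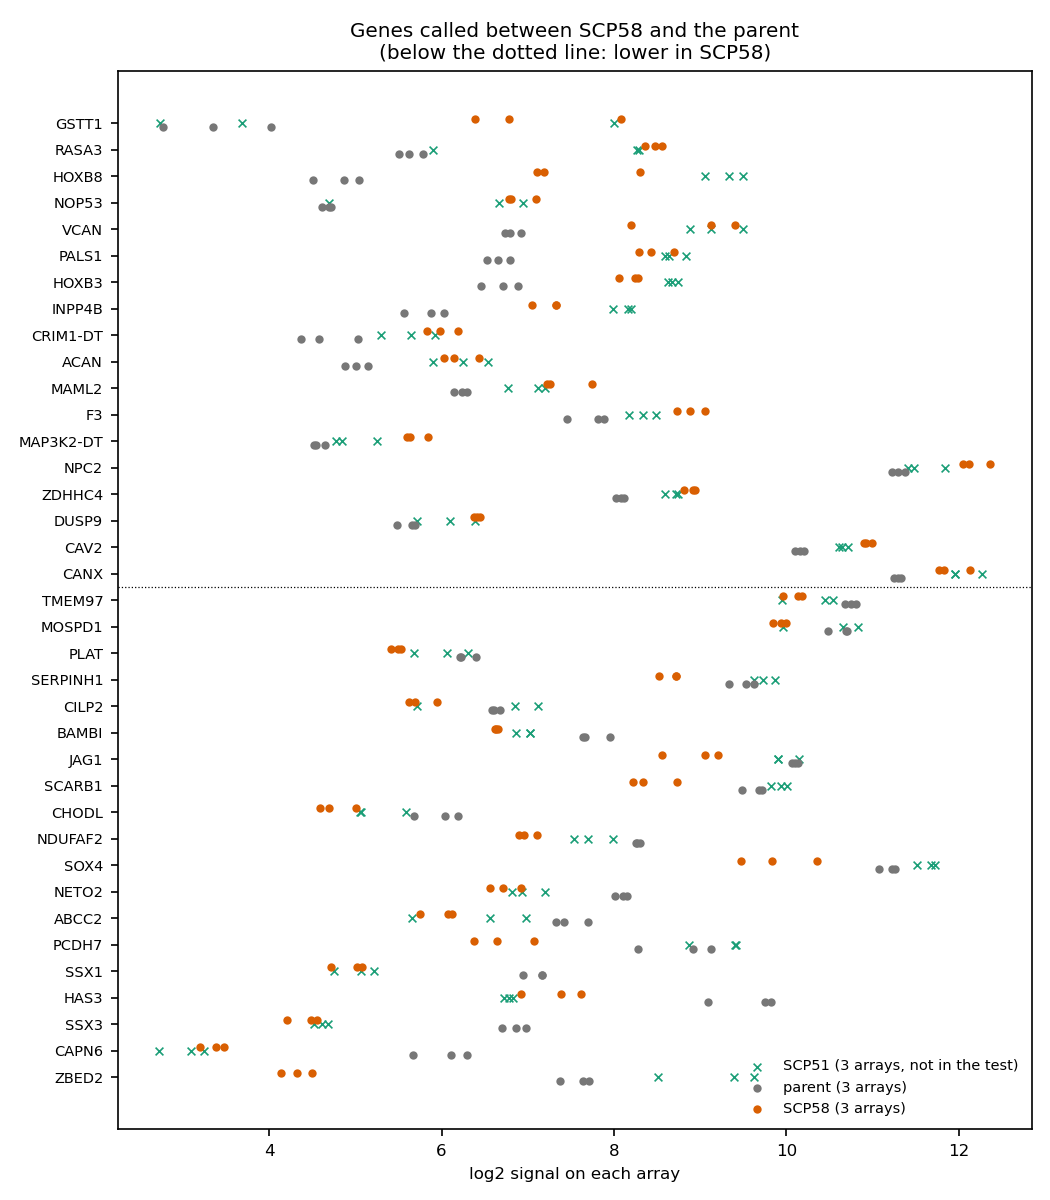
Signals on a log axis of the 37 called genes on each array of the parent, SCP58 and SCP51, 1 point per array, ordered by the difference of SCP58 from the parent. No SCP58 point overlaps the parent points of its gene, and the SCP51 points of RASA3, NOP53 and GSTT1 split between the levels of the other groups.

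Of the 37 called genes, 7 kept an adjusted p under 0.05 in all alternative fits that gave them a value, namely NDUFAF2, NETO2, PALS1, SSX1, SSX3, ZBED2 and MAP3K2-DT. Under the stricter limit of 0.01, MAP3K2-DT was not called (0.0102). In all, 13 stayed called with each array left out in turn wherever they were still tested. Other probe sets of the same gene above the median gave the same sign and at least 50% of the difference for 10 called genes, and at least 1 fell short for 6. No such set existed for 21. Among the genes tested, 32 lay above the median on the 3 SCP58 arrays only and 23 on the 3 parent arrays only. Of these, 6 (HOXB8, GSTT1, NOP53, ACAN, CRIM1-DT and MAP3K2-DT) and 5 (SSX1, SSX3, ZBED2, CAPN6 and CHODL) were called. Over all genes tested the share called was 0.28%. Genes bright in 1 group only entered the test through that group, so their larger share of calls is no separate support for a difference. Such genes are not tested when an array of the bright group is left out, since fewer than 3 arrays then pass the filter.

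Large differences without a call were seen as well. The genes given here come from the largest uncalled differences without overlap, or from the largest in their list. Fits with an array left out are given only where they made a call. The array left out was then the one of its group nearest the other group, so its removal widened the difference. KLF14, IFIT2 and GLIS3 were dim on the 3 parent arrays and passed the brightness filter through the SCP58 arrays alone. KLF14, a Krüppel-like transcription factor, had 25.4, 29.7 and 30.3 in the parent and 77.4, 436 and 318 in SCP58 (2.96, SE 0.54, adjusted p = 0.0862). Its SCP51 signals also split, with 564, 28.5 and 33.1, and a second, dim set read 0.03. ADAM19, a membrane metalloprotease, had 286, 137 and 317 in the parent and 70.7, 31.8 and 52.3 in SCP58 (-2.24, SE 0.37, adjusted p = 0.0585). EMP1, an epithelial membrane protein, had 69.9, 230 and 138 in the parent and 529, 623 and 550 in SCP58 (2.12, SE 0.37, adjusted p = 0.0645). Its second bright set read 1.82. Without parent replicate 2, ADAM19 and EMP1 were both called (adjusted p = 0.0316 and 0.0244). The interferon-induced gene IFIT2 had 11, 16.1 and 26.4 against 49.4, 54.1 and 48.6 (1.60, adjusted p = 0.0645), and was called without parent replicate 3 (0.0118). The transcription factor GLIS3 (1.5, adjusted p = 0.0645) and the neuronal calcium sensor VSNL1 (-1.32, adjusted p = 0.0594) were called without parent replicate 2 (0.0187 and 0.032), as was the granin SCG2 (-1.28, adjusted p = 0.103, and 0.0316 without it). TIAM1, an activator of the GTPase RAC tied to colorectal cancer metastasis, had 206, 313 and 311 in the parent and 769, 544 and 813 in SCP58 (1.36, SE 0.22, adjusted p = 0.0567). It was called without SCP58 replicate 2 (0.0407), but a second bright set read 0.10. The integrin subunit ITGB8 lay at 1.34 (adjusted p = 0.135) and the cytokine IL18 at 1.28 (adjusted p = 0.134).

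Gene groups were read as counts of members beside those over all genes, where 0.28% were called and 17.1% had groups that did not overlap. Of the lists tested with at least 5 genes, the Wnt and beta-catenin targets had the highest share of members whose groups did not overlap, 66.7%. Of 15 tested, 2 were called lower (SOX4 and BAMBI) and none higher, 9 lay wholly below the parent and 1 wholly above, and the median was -0.26. The ubiquitin ligase ZNRF3, which feeds back on Wnt receptors, lay at -0.77 (adjusted p = 0.138). The feedback inhibitor AXIN2 lay on the other side, with 99.0, 136 and 109 in the parent and 174, 176 and 177 in SCP58 (0.63, adjusted p = 0.139), and its other bright sets read 0.05 and 0.03. The list median was -0.17 without SCP58 replicate 3 and -0.22 to -0.25 with any other array left out.

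The hypoxia and glycolysis genes lay below the parent as a group, without a single call. Of 31 tested, 29 had a difference below 0 and 10 lay wholly below the parent, and the median was -0.29. The hypoxia-induced genes ANKRD37 (-0.96, adjusted p = 0.412), PDK1 (-0.96, adjusted p = 0.188) and EGLN3 (-0.79, adjusted p = 0.28) had the largest differences, and the glycolytic enzymes GAPDH (-0.01) and ENO1 (-0.14) lay near 0. ANKRD37 had 193, 408 and 125 in the parent and 154, 122 and 70.8 in SCP58, with overlapping groups. ALDOC, an aldolase, had 212, 708 and 370 against 140, 375 and 251. One parent array was high in this group: 27 of the 31 genes had their highest signal of the 6 arrays on parent replicate 2. Without that array the median was -0.09, with 24 genes below 0, while leaving out any other single array gave -0.26 to -0.41. VEGFA, the vascular growth factor, had its highest signal on the same array. It had 642, 1080 and 739 in the parent and 472, 533 and 600 in SCP58 (-0.59, adjusted p = 0.298). Its other bright sets read -0.19, -0.26 and -0.66, all with overlapping groups.

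Cholesterol and fatty acid synthesis genes were also high on parent replicate 2. Of 26 tested, none was called, 22 lay below 0 and 5 wholly below the parent, and the median was -0.21. On parent replicate 2, 20 of the 26 were at their highest, and without it the median was -0.13. IDI1, an isomerase of the mevalonate pathway, had 828, 1520 and 878 in the parent and 596, 723 and 655 in SCP58 (-0.66, adjusted p = 0.298). INSIG1, which holds back the SREBP regulators, had 232, 626 and 261 against 199, 241 and 246 (-0.56, adjusted p = 0.55). SCD, the desaturase of fatty acids, was more even, with 2320, 2900 and 2530 against 1760, 1670 and 1930 (-0.53, adjusted p = 0.0981). The squalene epoxidase SQLE lay at -0.58 with overlapping groups. The intestinal transcription factor KLF4 had 257, 576 and 305 in the parent, again highest on replicate 2, and 187, 215 and 198 in SCP58 (-0.83, adjusted p = 0.292). What sets parent replicate 2 apart in these genes was not tested.

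**Figure D4:**
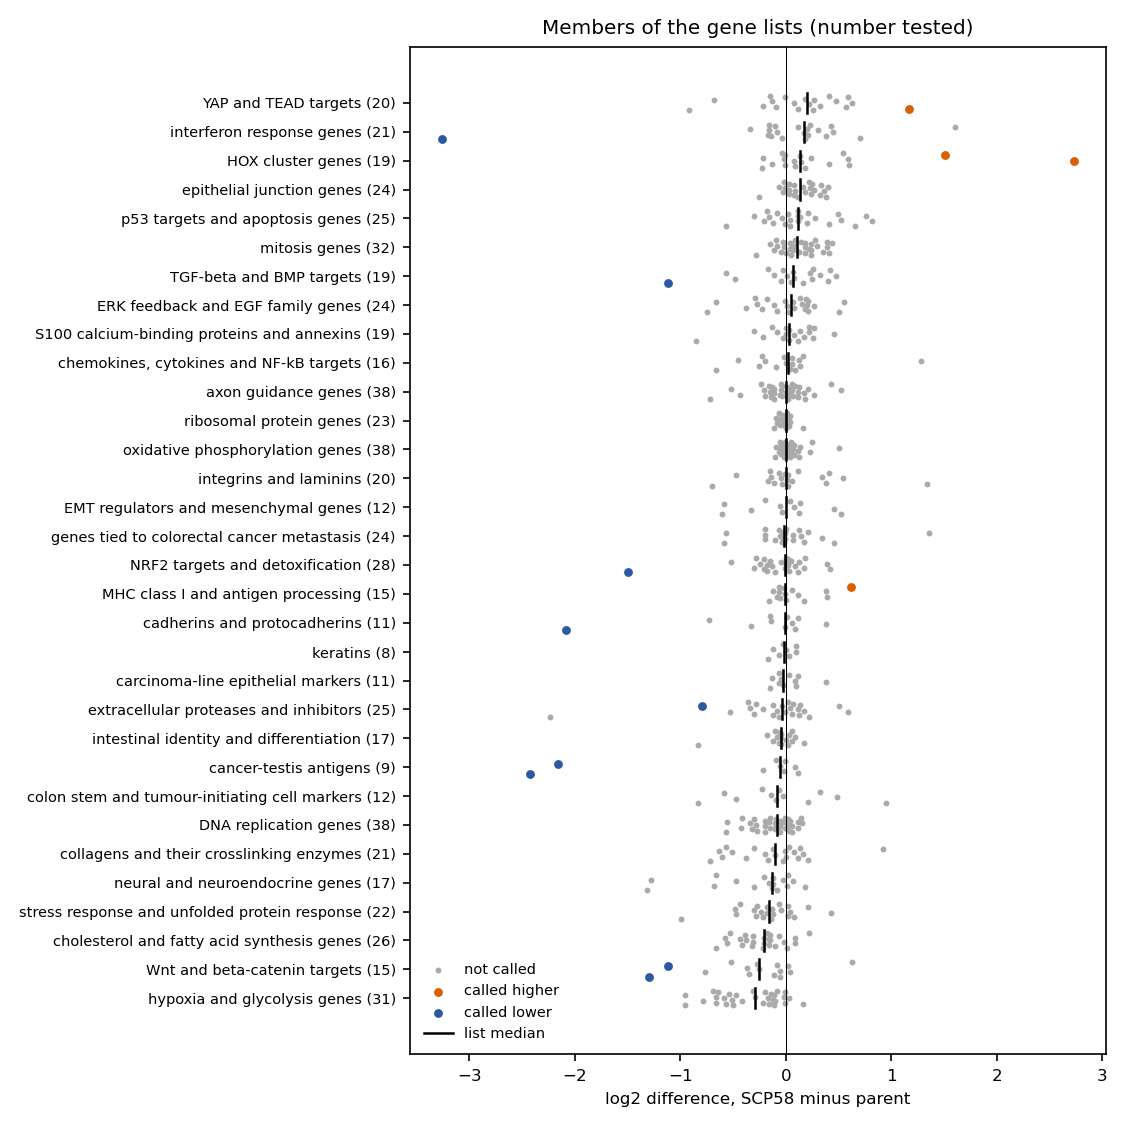
Log2 differences, SCP58 minus parent, of the tested members of each gene list, 1 point per gene, with the list median marked and called genes coloured. The medians of the hypoxia, Wnt and cholesterol lists lie at -0.29, -0.26 and -0.21, and those of ribosomal and oxidative phosphorylation genes at 0.00.

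Groups with medians above 0 held few calls. Among 20 targets of YAP and TEAD, which respond to cell contact and tension, F3 was called higher and none lower. In that list 8 genes lay wholly above the parent and 3 wholly below, with a median of 0.20, which was 0.13 without parent replicate 1 or SCP58 replicate 2. DLC1, a RhoGAP, lay at -0.92 in that list (adjusted p = 0.0645, and 0.0491 without SCP58 replicate 1). That replicate was the SCP58 array nearest the parent, and DLC1 was dim on all 3 SCP58 arrays. FJX1 lay at -0.68 (adjusted p = 0.181). Of 21 genes in the interferon response list, none was called higher and 1, the transcription factor ZBED2, lower. In it 6 genes lay wholly above and 3 wholly below. The list median was 0.17, or 0.11 without parent replicate 1 or SCP58 replicate 1. ZBED2 passed the brightness filter through the parent arrays alone and IFIT2 through the SCP58 arrays alone. Their sides in these counts are therefore no separate support for a difference. IFIT1 had 65.3, 73.5 and 78.5 in the parent and 118, 122 and 111 in SCP58 (0.70, adjusted p = 0.0645), and OASL lay at 0.45 (adjusted p = 0.316). Of 25 p53 targets and apoptosis genes none was called, 7 lay wholly above and 1 wholly below, and the median was 0.11. Its largest differences were those of TP53I3 (0.82, adjusted p = 0.135), ZMAT3 (0.76, adjusted p = 0.12) and the death receptor FAS (0.65, adjusted p = 0.119), whose groups did not overlap. The other bright sets for FAS gave 0.49 to 0.66.

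**Figure D5:**
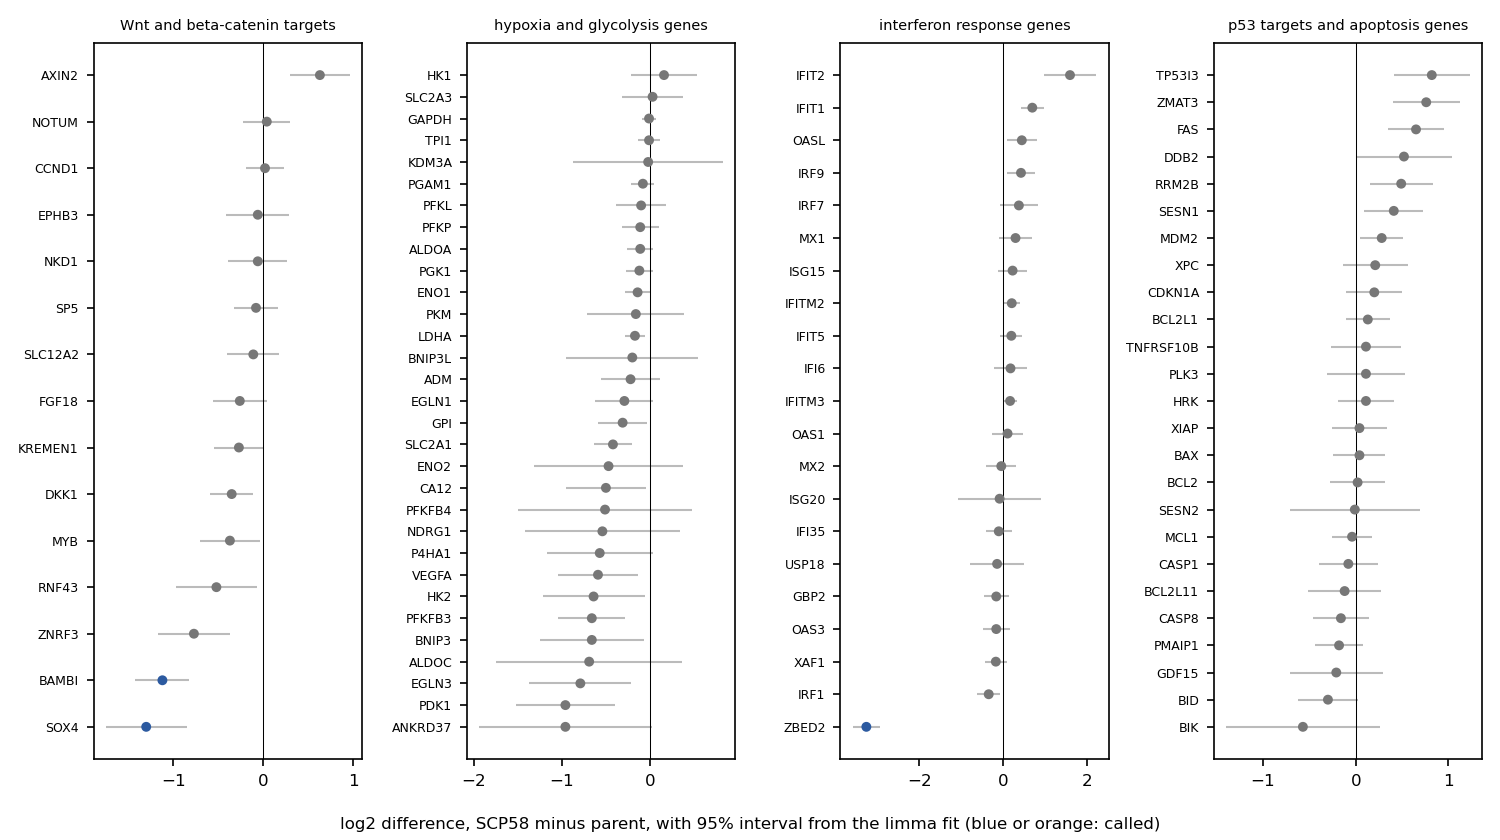
Log2 difference on the x axis, SCP58 minus parent, with its 95% confidence interval, for the tested members of 4 lists, 1 point per gene, coloured where called. SOX4, BAMBI and ZBED2 are the only called genes in these 4 lists, at -1.30, -1.12 and -3.26.

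The lists of epithelial junction genes, keratins and mesenchymal genes gave no call. PALS1 and VCAN, called above, are in none of these lists. Of 24 epithelial junction genes none was called, 19 lay above 0 and 5 wholly above the parent, a share of 20.8% close to the background, and the median was 0.13, or 0.21 without parent replicate 2 and 0.09 without parent replicate 1. The tight junction genes OCLN, CLDN7 and CGN lay at 0.40, 0.38 and 0.33 (adjusted p = 0.41, 0.342 and 0.308). Other bright sets for OCLN read -0.18 and -0.15, in the opposite direction, while another set for CGN read 0.50. EPCAM had 3180, 2960 and 3000 in the parent and 2840, 3050 and 3100 in SCP58, with overlapping groups and a difference of -0.03 (95% interval -0.17 to 0.12). CDH1, the epithelial cadherin, lay at 0.11 (interval -0.24 to 0.45). None of the 8 keratins tested was called or had separate groups, and KRT8 and KRT18 lay at 0.03 and -0.07. Among 12 regulators and markers of the mesenchymal state, the intermediate filament gene VIM had 44.5, 71.6 and 51.6 in the parent and 82.6, 77.7 and 75.4 in SCP58 (0.52, adjusted p = 0.308). In that list 2 genes lay wholly above the parent and 2 wholly below, a share of 33.3%, and the median was 0.00. The crosslinking enzyme LOXL2 lay at -0.61 (adjusted p = 0.341) and the metastasis-associated S100A4 at 0.46 (adjusted p = 0.252). Another LOXL2 set, above the median on 3 arrays, read -0.04 with overlapping groups.

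Genes known from adhesion and invasion gave single calls at most. Of 25 extracellular proteases and inhibitors, PLAT was called lower and none higher, and SERPINB5, the inhibitor maspin, lay at 0.59 (adjusted p = 0.138). Of 20 integrins and laminins none was called. LAMA2 lay at -0.70 (adjusted p = 0.233), and its 2 other bright sets at -0.57 and -0.69. Of 21 collagens and crosslinking enzymes none was called, with COL12A1 at 0.92 (adjusted p = 0.183) and its other bright sets at 1.5 and 0.52. Of 24 genes tied to colorectal cancer metastasis none was called, and the median was -0.01. The hyaluronan receptor CD44 had 2280, 2000 and 2370 in the parent and 1500, 1250 and 1690 in SCP58 (-0.59, adjusted p = 0.123), while its other sets above the median read -0.05 to -0.55. S100A14, a calcium-binding protein, had 1430, 2080 and 1650 against 987, 1020 and 837 (-0.85, adjusted p = 0.0645), and SCP51 was far below both at 302, 215 and 270.

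Signalling and identity lists held few or no calls. Of 24 ERK feedback and EGF family genes none was called, with DUSP5 at -0.75 (adjusted p = 0.135), SPRY4 at -0.66 (adjusted p = 0.176) and ETV1 at 0.55 (adjusted p = 0.339). The 19 genes tested of the TGF-beta and BMP list include receptors and ligands as well as targets. Among them BAMBI was called lower and none higher, while 12 lay above 0, 6 wholly above the parent and 3 wholly below. The list median was 0.07. Among the largest differences of that list, TGIF1 lay at -0.57 (adjusted p = 0.221), ID3 at -0.48 (adjusted p = 0.241) and TGFB2 at 0.47 (adjusted p = 0.264). Another TGFB2 set, above the median on 3 arrays, read 2.64 with overlapping groups. Of 17 neural and neuroendocrine genes none was called, 13 lay below 0, and the synaptic calcium sensor SYT1 lay at -0.66 (adjusted p = 0.0567). Of 12 stem cell markers none was called, and DCLK1, a kinase of tuft and tumour-initiating cells, had 77.1, 64.6 and 86.8 in the parent and 167, 122 and 154 in SCP58 (0.95, adjusted p = 0.0645). DCLK1 was 377, 376 and 341 in SCP51, so SCP58 lay between the parent and the other clone. Of 16 chemokine, cytokine and NF-kB target genes none was called, and CXCL8 lay at -0.66 with overlapping groups. Of 15 genes of antigen presentation CANX was called higher and none lower, with HLA-E at 0.39 (adjusted p = 0.48). None of 38 axon guidance genes and none of 17 intestinal identity genes was called.

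Housekeeping and growth genes lay close to the parent. The 23 ribosomal protein genes tested ran from -0.11 to 0.16 with a median of 0.00, and the 38 oxidative phosphorylation genes had a median of 0.00. Of 38 DNA replication genes none was called and 26 lay below 0. CDT1 and CCNE1, which license and start replication, lay at -0.56 and -0.57 (adjusted p = 0.143 and 0.233). A second bright set for CDT1 read only -0.09, with overlapping groups. Of 32 mitosis genes none was called, 24 lay above 0 and the median was 0.11. SCP58 replicate 3 held the highest signal of 21 of these 32 genes, and without it the median was 0.02. The median was 0.23 without SCP58 replicate 2 and 0.07 without parent replicate 3. Of 22 stress response genes none was called, and the median was -0.16, or -0.05 without SCP58 replicate 1. The chaperone HSPH1 had 1110, 488 and 966 in the parent and 509, 312 and 422 in SCP58 (-0.99, adjusted p = 0.266).

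The called genes lay on most chromosomes. The X chromosome held 5 of them among 401 genes tested, where 0.28% of all genes were called. CAPN6, SSX1, SSX3 and MOSPD1 were lower and DUSP9 higher, and no other chromosome held more than 3. The SSX signals cannot be given to 1 gene with confidence, so SSX1 and SSX3 are not independent calls. SSX1, SSX3 and CAPN6 also passed the brightness filter through the parent arrays alone. The count on X was therefore not read as a trait of that chromosome. Chromosome medians lay between -0.040 and 0.041, so no chromosome as a whole lay far from the parent. Among the called genes with a RefSeq promoter window, the median number of CG pairs in that window was 26.5 for the 12 higher genes and 14 for the 15 lower ones, against 20 over 10621 tested genes. ZBED2 had none and SSX1 had 3, while NETO2 had 47 and BAMBI 41, so the lower genes held both kinds of promoter.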

How the data were processed

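RNA from 9 cultures was labelled with biotin and hybridised to Affymetrix arrays of 54675 probe sets. Each deposited value is a linear intensity per probe set. The authors used GCOS 1.4 (named in the submitters' processing notes), and how it scaled, background-corrected and summarised the probes is not given in the sources used here. Intensities were floored at 1, which touched 358 values on the 6 arrays (3 of them 0), and converted to log2 without rescaling. Controls (62 probe sets) were dropped. Probe sets had to lie above their array's median on at least 3 of the 6 arrays. Each gene was read from its probe set of highest mean log2 among those with 1 symbol (41091, with 1801 of several and 11721 of none), updated through a RefSeq table of GRCh38.p14 (99.9% matched). That table served for names, chromosomes and order.

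SCP58 and the parent were compared with limma 3.58.1 in R 4.3.3 (lmFit, eBayes with an intensity trend, two-sided) on the 6 arrays alone, and every adjusted p comes from that fit or a named alternative to it. The fit was tested on simulated data. Having 3 arrays per group limits the precision. The genes, the 35 lists and the rule for named genes were chosen with earlier results of these data known. The rule takes the called genes, the 4 largest differences and the 3 brightest members of each list, any called member of a list, the 10 largest uncalled differences without overlap, and the genes of an earlier account (SSX1, SSX3, ZBED2, PCDH7 and TIAM1). Some genes it takes are left out. The alternatives concern the filter, the scaling, the low signals, the variance model, the probe sets of a gene, the arrays in the fit and the replicate number. Figures were drawn with matplotlib 3.10.9.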

Additional observations from a re-analysis of the deposited data

Results flagged for a closer look

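Probe sets that the annotation ties to no gene symbol or to several were not used in the gene counts. Tested probe set by probe set with limma, 16 of them were called, 7 higher and 9 lower in SCP58. Of these, 8 carried several symbols (of 1135 tested, 0.705%) and 8 none (of 3184 tested, 0.251%). The 7 SSX sets described above make up all but 1 of the sets with several symbols. Among the sets without a symbol, 1 had signals of 110, 109 and 96.5 in the parent and 4.08, 2.45 and 2.58 in SCP58 (-5.15, adjusted p = 5.87e-05). Another had 1.68, 4.86 and 2.89 in the parent and 69.7, 97.7 and 84.3 in SCP58 (4.86, adjusted p = 0.00172). Both switched between a dim level and a level above the array median.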

How the results depend on the processing

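The count of calls was 37, all of them with groups that do not overlap. It was 21 without a filter, 61 with arrays centred on their 75th percentile, 19 with all 9 arrays in the fit, and 14 at an adjusted p under 0.01. With array weights it was 2196, 1154 of them higher and 1042 lower, as limma gave parent replicate 3 a weight of 4.38 and SCP58 replicate 2 a weight of 2.51 against 0.328 to 0.833 for the others. With each array left out in turn it ranged from 12 to 73. Under the filter at the 65th percentile, quantile normalization, 32 added before log2, no trend and probe sets averaged within a gene it was 30, 47, 39, 30 and 37. The labels do not say whether the replicate numbers pair the arrays, and the main fit did not pair them. Deviations of same-numbered arrays correlated at 0.0351, 0.208 and -0.00735, and those of differently numbered arrays at -0.158 to 0.11. With 3 arrays per group these values cannot decide whether the arrays are paired. A fit with a replicate block called 66 genes, 31 of them shared with the 37. No called gene changed direction under any of these settings. Among the uncalled genes named here, KRT19 lay at -0.073 under the mean of its probe sets and KRT8 at -0.0486 with array weights, both without a call (adjusted p = 0.86 and 0.432). The median difference over all genes stayed between -0.018 and 0.0141. With 3 arrays per group, a difference of under about 0.323 could not be told from 0 for a typical gene even without adjustment. The smallest difference called after adjustment was 0.62. The list medians with each array left out, and the test of every probe set by itself, were chosen after seeing the data.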

Other observations

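Some probe sets switched fully between arrays of 1 group. These genes were chosen after their values were seen. KLRF1 had signals of 14, 12.6 and 5800 in the parent, of 5400, 5670 and 5620 in SCP58 and of 5890, 5510 and 5460 in SCP51. VGLL3 had 4960, 14.3 and 4830 in the parent, 4400, 4460 and 4410 in SCP58 and 4890, 4540 and 16.1 in SCP51. CDC42EP5 had 4460, 4650 and 173 in the parent, 4370, 4220 and 4550 in SCP58 and 4280, 98.5 and 3980 in SCP51. In each case the arrays held a dim or low level or a bright one with little between, and the 3 SCP58 arrays were all bright. None of the 3 genes was called (limma adjusted p = 0.314, 0.632 and 0.624). The cause was not tested.

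Neighbouring genes were also read in windows of 30 tested genes along each chromosome, located after their values were seen and without a test. The middle 95% of 2508 window medians lay between -0.089 and 0.123. The lowest window, from SIN3B to ARRDC2 on chromosome 19, had a median of -0.187, with 8 genes wholly below the parent and 1 wholly above. The highest median, 0.248, was shared by overlapping windows on chromosome 5, from ARHGEF28 to CKMT2-AS1 and from CERT1 to TMEM167A, the latter with 9 genes wholly above and 1 wholly below.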
